A study of Mus musculus with 4 samples.

Results

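Carriers that move amino acids, small peptides, creatine, taurine and neurotransmitters across membranes were compared between endothelial cells (ECs) of the dura mater, the outer meningeal layer, and ECs of the brain parenchyma. The carriers were taken by symbol alone, as every gene of the SLC1, SLC3, SLC6, SLC7, SLC15, SLC36, SLC38 and SLC43 families in the count tables. The rule gave 69 of 23282 symbols. Of these, 66 are carrier genes and 3 (Slc7a6os, Slc36a1os and Slc6a19os) are genes named for lying on the opposite strand of a carrier. Counts of carriers below are over all 69 symbols unless carrier genes are named, so they include Slc7a6os, the counted one of these 3. Each tissue had 2 RNA-sequencing libraries from C57BL/6J mice aged 8 weeks. ECs were sorted with antibodies to CD31 (an endothelial surface protein), CD45 (leukocytes) and TER-119 (erythroid cells), and brain ECs were first enriched on CD31-binding magnetic beads, a step not described for dura mater ECs. No transgene, treatment or injury is named for either group, and the labels do not say whether the 2 libraries of a tissue came from separate mice or cultures. The p-values below therefore measure the spread between these libraries, which may be technical.

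Brain capillary endothelium is sealed by tight junctions, so amino acids enter the brain through carriers in the EC membrane. Large neutral amino acids cross by exchange through a heteromeric carrier, in which a light chain of the SLC7 family carries the substrate and the heavy chain Slc3a2 brings it to the surface. Sodium-coupled carriers of the SLC38 and SLC1 families concentrate glutamine and glutamate in the cell, and SLC6 carriers do the same for taurine, creatine and the amine and amino acid neurotransmitters. Vessels of the dura mater lack this barrier.

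The libraries held 13518973 to 16096203 counts. The 7 general endothelial markers were counted in all 4 libraries, and 8 blood-brain barrier markers summed to 26780 and 24710 CPM (counts scaled to a common library size, TMM-adjusted) in brain ECs against 3289 and 3239 in dura mater ECs. Markers of other cells were present as well: erythroid markers summed to 18010 and 25690 CPM in brain ECs and to 1496 and 762 in dura mater ECs, and fibroblast markers to 7.38 and 50.7 against 337 and 354 CPM. The fibroblast sum came almost wholly from Col1a1, Col1a2, Col3a1 and Dcn. Lum, Pdgfra and Lama2 of the same list had at most 4 counts in any library. Mural cell markers summed to 621 and 1075 CPM in brain ECs and to 1127 and 664 in dura mater ECs. Acta2 and Myh11 together gave most of each sum. Of the 8 mural cell markers, 6 had a fitted difference towards dura mater ECs and 2 towards brain ECs. Kcnj8 had 0 and 0 counts in brain ECs against 468 and 410 in dura mater ECs, and Rgs5 had 11 and 342 against 2 and 179. These members were named after their values were seen. Macrophage and microglia markers summed to 50.9 and 50.6 CPM in brain ECs and to 44.4 and 29.5 in dura mater ECs. Their members differed in direction: Cd68 had 4 and 3 against 550 and 441 counts, and C1qa 436 and 1 against 2 and 25. Csf1r had 4 and 646 against 28 and 9 counts, and Ptprc at most 4 in any library. Replicates disagreed at many genes. Among symbols with at least 64 counts in 1 of the 2 brain libraries, 31.3% had 7 or fewer counts in the other, and in dura mater this share was 30.7%. Among carriers it was 9 of 22 (40.9%) in brain ECs and 13 of 31 (41.9%) in dura mater ECs.

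Of the 69 symbols, 39 were counted in at least 1 library and 30 had 0 counts in all 4. A test across all genes was possible for 25 of them (24 carrier genes and Slc7a6os), those that passed a filter on low counts. Because a gene can pass that filter through its higher group alone, counts over the tested carriers are descriptions and do not bear on whether carriers as a class differed. With edgeR's quasi-likelihood test and Benjamini-Hochberg adjustment over 9347 genes, 0 of the 25 carriers passed an adjusted p of 0.05, against 57 of all genes tested (0.610%). At an unadjusted p under 0.05, 8 carriers differed, 4 higher and 4 lower in dura mater ECs, where 10.01% of all genes did. The libraries of the tissues did not overlap for 19 of the 25 (10 higher, 9 lower in dura mater ECs), against 43.1% of all genes tested.

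Other tools drew the line elsewhere. DESeq2 called 9 of the 32 carriers for which it gave an adjusted p, against 12.0% of all genes: Slc1a2, Slc1a3 and Slc1a5 higher, and Slc1a1, Slc7a1, Slc7a5, Slc7a9, Slc38a3 and Slc38a5 lower in dura mater ECs. In 6 of these 9, at least 1 library held 7 or fewer counts. limma-voom called 1 carrier, Slc7a5, against 0.856% of all genes. When edgeR was restricted to genes with at least 10 counts in every library, 3 of 9 carriers passed (Slc7a1, Slc7a5 and Slc38a5, all lower in dura mater ECs), against 2.95% of all genes. The edgeR count of 0 also depended on single libraries: it was 6 without brain ECs replicate 1, 10 without brain ECs replicate 2, 2 without dura mater ECs replicate 1 and 3 without dura mater ECs replicate 2. In these fits the lone library of a tissue is assumed to vary like the pair of the other. The median log2 fold change (log2FC, dura mater over brain) of the 25 carriers was -0.23, with a range from -6.47 to 7.65, beside -0.01 over all genes tested. Without brain ECs replicate 1 or 2 the carriers' median was 2.49 or 3.14, beside 1.03 or 0.95 over all genes. Without dura mater ECs replicate 1 or 2 it was 0.21 each time, beside 0.14 or -0.19. More carriers were tested in the fits without a library (30 to 35).

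**Figure D1:**
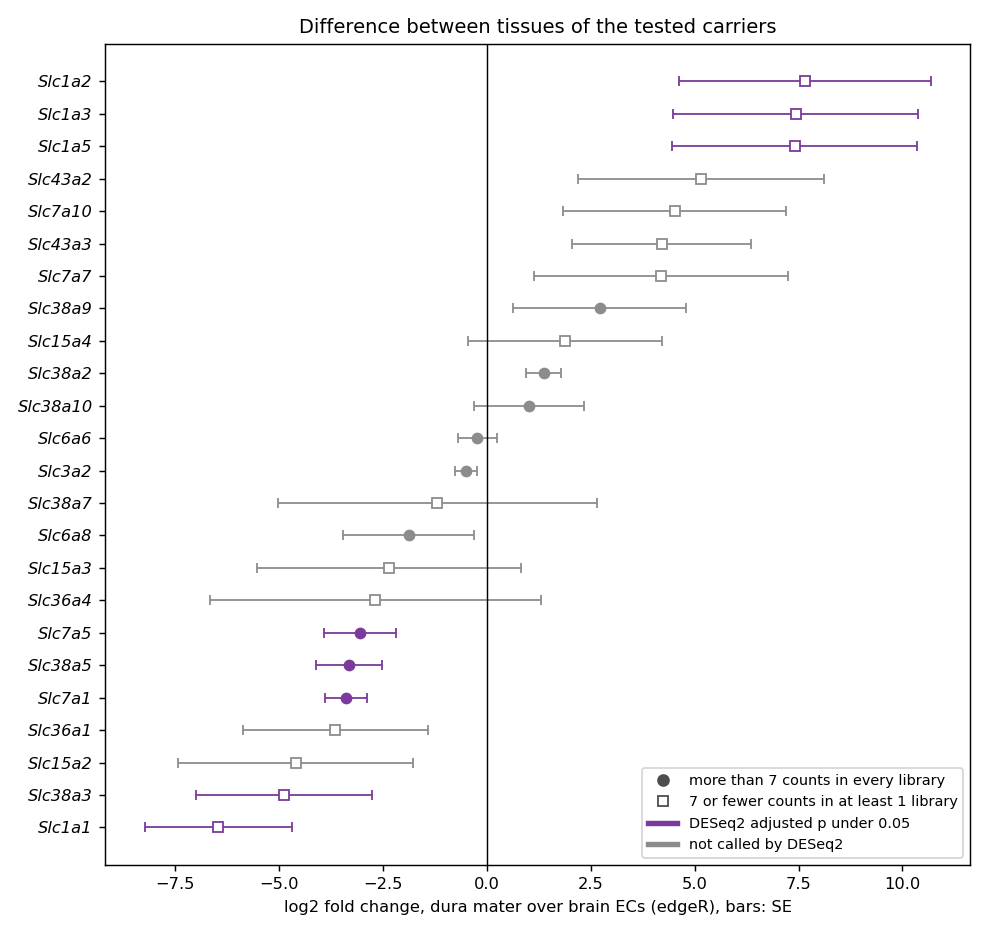
Fitted edgeR log2 fold change (dura mater over brain ECs, x axis) with its SE as bars for the 24 tested carrier genes; squares mark genes at 7 or fewer counts in any library, and purple marks an adjusted p under 0.05 by DESeq2. Most filled points have the shorter bars, and Slc7a1, Slc7a5 and Slc38a5 are the filled points farthest below 0.

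The large neutral amino acid carrier of the barrier showed a wide gap in its light chain and a narrow one in its heavy chain. Slc7a5 (LAT1, GRCm38 chr8:121881150-121907694, minus strand), the light chain that carries leucine, phenylalanine and the drug L-DOPA, had 20580 and 13412 counts in brain ECs against 510 and 4170 in dura mater ECs. Both dura mater libraries lay below both brain libraries, and the dura mater libraries were also far apart. The means (± SD, n = 2) were 1217 ± 287 CPM for brain ECs and 147 ± 154 CPM for dura mater ECs. The log2FC was -3.05 ± 0.87, where ± after a log2FC gives its SE, and edgeR's adjusted p was 0.329. Over 15 fits the adjusted p ran from 3.24e-10 to 0.384 and was under 0.05 in 9. It was 5.83e-07 without brain ECs replicate 1, 3.24e-10 without brain ECs replicate 2 and 0.00429 without dura mater ECs replicate 2, where the log2FC was -2.86, -3.37 and -5.01. Without dura mater ECs replicate 1 it was 0.112, with a log2FC of -2.39.

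Slc3a2 (CD98, chr19:8706882-8723369, minus strand), the heavy chain shared by several light chains and a partner of integrins, had 42510 and 32293 counts in brain ECs against 24254 and 32549 in dura mater ECs. Scaled by library, these came to 2687 ± 348 CPM and 1901 ± 131 CPM, and the tissues did not overlap. Its log2FC was -0.50 ± 0.27 (edgeR adjusted p = 0.586) and it was called in none of the fits run, its adjusted p lying between 0.201 and 0.973. The ratio of Slc7a5 to Slc3a2 counts within a library, which needs no scaling between libraries, was 0.484 and 0.415 in brain ECs but 0.0210 and 0.128 in dura mater ECs. Both dura mater ratios were below both brain ratios. An exact permutation test of 2 against 2 libraries cannot give a two-sided p below 0.333, so no such test was made of this or other ratios.

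Other light chains made up more of the light-chain counts in dura mater ECs. Slc7a5 was 95.8% and 98.9% of the counts of all light chains in brain ECs but 28.3% and 60.4% in dura mater ECs. Slc7a10 (Asc-1), which exchanges small neutral amino acids including D-serine, had 0 and 87 counts in brain ECs against 660 and 1762 in dura mater ECs (log2FC 4.52 ± 2.68, edgeR adjusted p = 0.669). Slc7a7 (y+LAT1), which exports cationic amino acids, had 0 and 61 against 555 and 771 counts (log2FC 4.18 ± 3.06, edgeR adjusted p = 0.837). Both dura mater libraries exceeded both brain libraries for these 2 genes, and only the fit without brain ECs replicate 2 called Slc7a10 (edgeR adjusted p = 0.000664, log2FC 9.15, beside 0.295 to 0.838 without any other library). Part of the exon length of each overlaps a gene on the other strand (17.9% for Slc7a10 with Lrp3, 7% for Slc7a7 with Oxa1l), and since strand use in counting is not given in the sources used here, their counts are uncertain. The same limit holds for other counted carriers with an overlap above 7%. These were Slc1a1 (31.9%), Slc15a3 (28.1%), Slc3a1 (26.5%), Slc43a2 (9.18%) and Slc15a4 (8.04%). Slc7a11 (xCT), the cystine and glutamate exchanger, had 2, 2 and 2 counts in both brain libraries and dura mater replicate 1, and 205 in dura mater replicate 2. Slc7a8 (LAT2) had 2, 2, 1 and 0 counts, at most 3 in every library, so no fold is given.

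**Figure D2:**
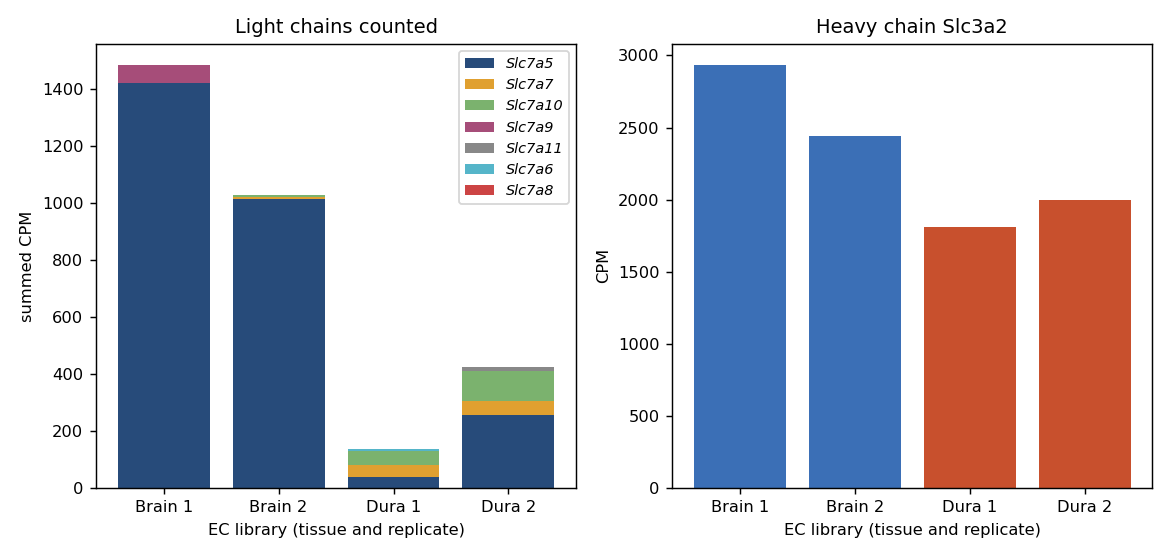
Summed CPM of the light chains in each library, coloured by gene (left), and CPM of the heavy chain Slc3a2 (right). The stack is almost wholly Slc7a5 in the brain libraries (95.8% and 98.9% of light-chain counts) and mixed in the dura mater libraries; Slc7a9, drawn with the others, pairs with Slc3a1 and not with Slc3a2.

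Of the cationic amino acid carriers, Slc7a1 alone was counted well in every library. Slc7a1 (CAT1, chr5:148327410-148399904, minus strand), the uptake route for arginine and lysine, had 6409 and 7176 counts in brain ECs against 762 and 603 in dura mater ECs. The replicates were close in both tissues and the tissues were well apart: 492 ± 70.9 CPM against 46.9 ± 14.1 CPM (SD, n = 2 each). The log2FC was -3.39 ± 0.51, and edgeR's adjusted p of 0.0566 was the lowest among the carriers. Over 15 fits it ran from 1.99e-07 to 0.0835 and was under 0.05 in 8, among them those without brain ECs replicate 1 (1.99e-07), brain ECs replicate 2 (8.82e-06) and dura mater ECs replicate 1 (0.0305); without dura mater ECs replicate 2 it was 0.0835. Slc7a2 (CAT2), a second arginine carrier, had 4, 8 and 5 counts and then 337 in dura mater replicate 2. Slc7a14, a lysosomal family member, had 1, 3, 0 and 7 counts.

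Many amino acid carriers are known targets of ATF4, the transcription factor of the amino acid response, which binds the element TGATGNAA. This word was searched on both strands, as the only motif, in RefSeq promoter windows of 300 bases (250 before to 50 after the start, GRCm38.p6). Windows were found for 47 of the 66 carrier genes, and 5 of their 68 windows (7.35%) held the word, beside 1304 of all 32851 windows (3.97%). The genes with a match were Slc7a11, Slc7a7, Slc1a4 and Slc15a5. Overlapping windows of Slc7a7 held the same copy of the word, so the 5 windows are not independent. Stretches without a match are shown for carriers counted in all 4 libraries with opposite signs of the difference, Slc7a1 (chr5:148399905-148400154, minus strand) and Slc38a2 (chr15:96699731-96699978, minus strand), and a stretch with matches for Slc7a11 (chr3:50443646-50443705, minus strand), which has 2 copies facing each other. Capitals mark the motif, and each sequence is written 5′ to 3′ towards the gene.
Slc7a1: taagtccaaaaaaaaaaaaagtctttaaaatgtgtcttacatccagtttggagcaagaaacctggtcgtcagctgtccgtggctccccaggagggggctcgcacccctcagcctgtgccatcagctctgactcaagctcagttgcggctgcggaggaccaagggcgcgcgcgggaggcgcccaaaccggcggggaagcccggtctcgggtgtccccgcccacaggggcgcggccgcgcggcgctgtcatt
Slc38a2: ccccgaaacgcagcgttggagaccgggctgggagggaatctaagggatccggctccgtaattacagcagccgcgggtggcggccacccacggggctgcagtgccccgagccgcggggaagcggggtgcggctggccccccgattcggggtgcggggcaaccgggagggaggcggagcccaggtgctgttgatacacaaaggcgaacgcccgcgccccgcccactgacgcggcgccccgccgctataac
Slc7a11: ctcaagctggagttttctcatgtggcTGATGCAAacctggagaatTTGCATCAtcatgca
A match is a description of these letters and not a shown binding site. The word was not searched outside the windows, so a window without a match does not show that the gene lacks the element. No entry was matched for Slc7a5.

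The sodium-coupled carriers of the SLC38 family were split in direction. Slc38a5 (SNAT5, chrX:8271133-8280179, plus strand), which moves glutamine, asparagine and histidine, had 4159 and 2754 counts in brain ECs against 174 and 589 in dura mater ECs (248 ± 55.7 against 24.5 ± 16.3 CPM). Its log2FC was -3.33 ± 0.79 (edgeR adjusted p = 0.236, DESeq2 0.000383). Slc38a3 (SNAT3, chr9:107650634-107669530, minus strand), of the same system N, had 4750 and 2911 counts against 0 and 297. Both dura mater libraries were below both brain libraries in each of these genes, but for Slc38a3 they differed from 0 to 297 (log2FC -4.89 ± 2.12, edgeR adjusted p = 0.468, DESeq2 0.0229). edgeR called both genes without brain ECs replicate 1 (adjusted p 0.025 for Slc38a5 and 0.000529 for Slc38a3) and without brain ECs replicate 2 (0.000214 and 1.41e-08), and Slc38a3 also without dura mater ECs replicate 2 (0.0022). Without dura mater ECs replicate 1 the adjusted p was 0.515 for Slc38a5 and 0.112 for Slc38a3, and for Slc38a5 it was 0.13 without dura mater ECs replicate 2. The log2FC of Slc38a3 moved to -10.88 without dura mater ECs replicate 2 and to -4.04 without dura mater ECs replicate 1, and that of Slc38a5 lay between -4.26 and -2.91.

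Slc38a2 (SNAT2, chr15:96687392-96699730, minus strand), the system A carrier of small neutral amino acids, lay the other way, with 3552 and 2931 counts in brain ECs against 10110 and 7267 in dura mater ECs. The groups did not overlap at 233 ± 16.6 and 600 ± 218 CPM, with a log2FC of 1.36 ± 0.43 (edgeR adjusted p = 0.398), and the gene was called in none of the fits run. The ratio of Slc38a2 to Slc38a5 counts was 0.854 and 1.06 in brain ECs but 58.1 and 12.3 in dura mater ECs. Summed over its 11 genes, the SLC38 family gave 976 and 689 CPM for brain ECs against 850 and 684 for dura mater ECs, so the family totals overlapped while these members stood apart. Slc38a9, a lysosomal arginine sensor for mTORC1, had 87 and 101 against 388 and 1008 counts (log2FC 2.71 ± 2.08, edgeR adjusted p = 0.870). Slc38a10 (865, 183, 728 and 1531 counts) overlapped between tissues. Slc38a7 (0 and 234 against 0 and 123 counts), a lysosomal glutamine exporter, differed more between replicates than between tissues. Slc38a6 and Slc38a1 were each counted above 3 in 1 library only, at 737 in brain replicate 1 and 354 in dura mater replicate 2.

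Of the glutamate carriers, Slc1a1 was counted mainly in brain ECs, and Slc1a2 and Slc1a3 almost only in dura mater ECs. Slc1a1 (EAAT3, chr19:28835049-28913960, plus strand), a high-affinity glutamate and cysteine carrier, had 6295 and 3893 counts in brain ECs against 1 and 128 in dura mater ECs, a mean of 364 ± 99.0 against 3.96 ± 5.49 CPM. Its log2FC of -6.47 ± 1.77 (edgeR adjusted p = 0.306) was the lowest of the tested carriers. The adjusted p was under 0.05 in 8 of 14 fits, among them all 4 that left out a library: 6.45e-09 and 3.39e-16 without brain ECs replicates 1 and 2, and 0.0123 and 0.00115 without dura mater ECs replicates 1 and 2. The log2FC was -10.70 without dura mater ECs replicate 2 and between -6.82 and -5.65 without any other library. A gene on the other strand, 4430402I18Rik, overlaps 31.9% of its exon length, so its counts may hold reads of that gene.

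Slc1a2 (GLT-1) and Slc1a3 (GLAST), the glutamate carriers of astrocytes, had at most 1 count in either brain library (1 and 0 for Slc1a2, 1 and 1 for Slc1a3). In the dura mater libraries Slc1a2 had 863 and 87 counts and Slc1a3 had 915 and 74. The ratio of summed counts per summed TMM-adjusted library size was 886 for Slc1a2 (95% counting interval 159 to 35020) and 461 for Slc1a3 (127 to 3812). These intervals cover counting error only, and edgeR's adjusted p, which includes replicate spread, was 0.466 for each. Dura mater replicate 1 held most of the counts of both genes. Of 8 astrocyte markers, 7 were counted, and their sum was 52.6 and 80.7 CPM in brain ECs and 306 and 182 CPM in dura mater ECs. Gja1, a gap junction gene that other cells also express (743, 103, 3641 and 2460 counts), made up most of this in 3 libraries, and S100b (9, 949, 0 and 294 counts) in brain replicate 2. Gfap (3, 0, 189 and 0) and Aldoc (3, 5, 256 and 2) were high only in dura mater replicate 1, the library in which Slc1a2 and Slc1a3 were higher, whereas S100b and Sox9 (4, 8, 18 and 207) were higher in dura mater replicate 2. Aqp4 had 0 counts in every library. Neuron markers summed to 142 and 187 CPM in brain ECs and to 206 and 158 in dura mater ECs. Oligodendrocyte markers summed to 102 and 5.22 against 143.5 and 47.8 CPM. Between the dura mater libraries, Slc17a7 (0, 232, 595 and 2 counts) and Syt1 (2, 1, 170 and 0) were higher in replicate 1. So were Olig1 (0, 0, 322 and 0) and Mbp (1476, 4, 1027 and 6), and Mbp was also high in brain replicate 1. Cnp (2, 65, 179 and 552) and Snap25 (0, 0, 0 and 20) were higher in dura mater replicate 2. Stmn2 (2042, 2239, 1887 and 2473) was similar in all 4 libraries once scaled, at 140.9, 169.3, 140.7 and 151.5 CPM. The neuron and oligodendrocyte markers were named after their values were seen. The part of other cells in the values of Slc1a2 and Slc1a3 was not tested, and in bulk samples fewer cells of a type and less RNA per cell cannot be told apart.

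Slc1a5 (ASCT2, chr7:16781340-16798274, plus strand), an exchanger of glutamine and other neutral amino acids, had 0 and 1 counts in brain ECs against 333 and 572 in dura mater ECs. The replicates were close in both tissues and the ratio was 844 (95% counting interval 151 to 33360), with an edgeR adjusted p of 0.466 and a DESeq2 adjusted p of 0.00322. Slc1a4 (ASCT1), its relative that carries serine and alanine, had 0, 2 and 2 counts and then 303 in dura mater replicate 2, so no difference could be measured. Summed over 7 genes, the SLC1 family gave 434 and 295 CPM for brain ECs against 158 and 71.3 for dura mater ECs.

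Among the SLC6 carriers, taurine and creatine carriers were counted and neurotransmitter carriers were nearly absent. Slc6a6 (TauT, chr6:91684053-91759066, plus strand), the taurine carrier, had 14196 and 5388 counts in brain ECs against 8587 and 8800 in dura mater ECs. The brain libraries lay on either side of the dura mater ones, and the log2FC of -0.23 ± 0.48 (edgeR adjusted p = 1.00) turned to 0.49 without brain ECs replicate 1. Slc6a8, the creatine carrier, had 2089 and 1120 against 24 and 978 counts (log2FC -1.89 ± 1.58, edgeR adjusted p = 0.914), where the tissues did not overlap but the dura mater replicates were far apart. Of 9 GABA, glycine and monoamine carriers, 7 had 0 counts in every library, among them Slc6a12 and Slc6a13, which carry GABA. The exceptions were Slc6a2, the noradrenaline carrier, with 33 counts in dura mater replicate 2 and at most 1 elsewhere, and Slc6a4, the serotonin carrier, with 1 count in brain replicate 2. Slc6a20a, a proline carrier, also had 0 counts. A count of 0 allows up to 3 counts, or 0.184 to 0.227 CPM in these libraries.

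Both counted SLC43 genes were higher in the dura mater libraries. Slc43a3 (chr2:84936579-84958509, plus strand), a purine nucleobase carrier placed in this family by sequence, had 346 and 0 counts in brain ECs against 2456 and 4272 in dura mater ECs (log2FC 4.20 ± 2.16, edgeR adjusted p = 0.562). Slc43a2 (LAT4), an exit route for branched-chain amino acids, had 2 and 5 against 250 and 151 counts (log2FC 5.15 ± 2.95, edgeR adjusted p = 0.638). The dura mater libraries exceeded the brain libraries in both. Slc43a3 was called in 4 of 14 fits, among them those without brain ECs replicate 1 (edgeR adjusted p = 8.04e-16) and brain ECs replicate 2 (0.00483), and Slc43a2 in none. The log2FC of Slc43a3 was 10.62 and 3.14 in those fits, and without dura mater ECs replicate 1 or 2 its adjusted p was 0.771 and 0.799. Slc43a1 (LAT3) had 0 counts. The SLC43 family summed to 24.0 and 0.378 CPM for brain ECs against 202 and 271 for dura mater ECs.

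The peptide and proton-coupled carriers were the least even between replicates. Slc15a2 (PEPT2), a di- and tripeptide carrier, had 531 and 1231 counts in brain ECs against 0 and 82 in dura mater ECs (log2FC -4.61 ± 2.83, edgeR adjusted p = 0.693). Slc15a4, a lysosomal histidine and peptide carrier, had 1 and 474 against 905 and 1053 counts (log2FC 1.87 ± 2.34, edgeR adjusted p = 1.00). Slc36a1 (PAT1), a lysosomal proton-coupled carrier of small amino acids, had 2635 and 305 against 2 and 260 (log2FC -3.65 ± 2.22, edgeR adjusted p = 0.691). The tissues did not overlap for these 3 genes, but 1 library of a pair held almost none of the counts in each. Of the fits run, Slc15a4 and Slc36a1 were called only in edgeR's without brain ECs replicate 2 (adjusted p 0.0163 and 0.00486, log2FC 8.30 and -4.58), and Slc15a2 in none. Without the other libraries the adjusted p of Slc15a4 was 0.81 to 1.00 and that of Slc36a1 0.281 to 0.849.

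**Figure D3:**
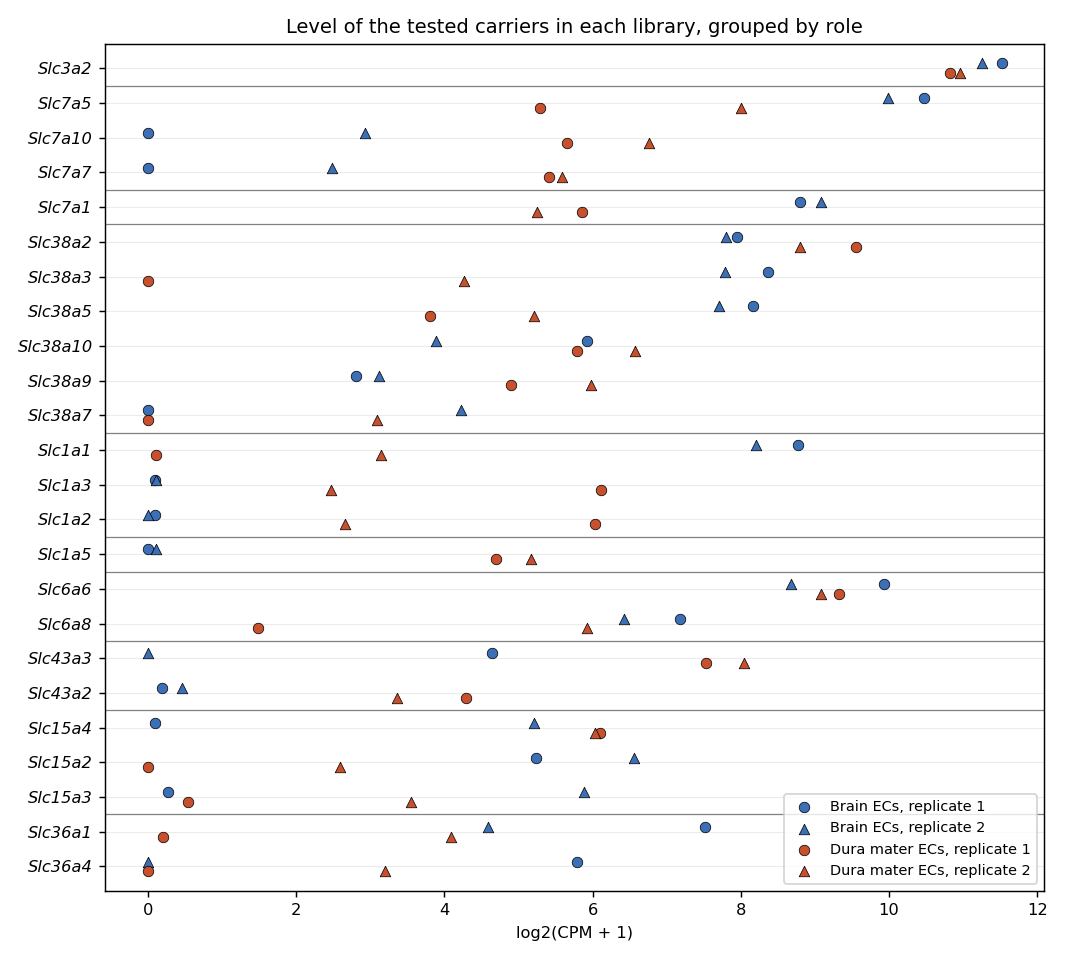
Level of each of the 24 tested carrier genes as log2(CPM + 1) in every library, in blocks by role; circles are replicate 1 and triangles replicate 2. Slc3a2, Slc7a1 and Slc38a2 have replicates close together in both tissues, while Slc15a4, Slc36a1 and Slc36a4 have replicates far apart in at least 1 tissue.

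In 19 carriers 1 library of a tissue held at least 64 counts and the other 7 or fewer, and 11 of the 25 tested carriers were among them. Of 13 such carriers in dura mater ECs, 11 were high in replicate 2, which had more carriers at 64 or more counts (29) than the other libraries (17 to 19) and also the highest total. In brain ECs 4 were high in replicate 1 and 5 in replicate 2. Slc15a3, Slc36a4 and Slc38a7 were split in both tissues. The brain-only signal of Slc7a9, the cystinuria light chain that pairs with Slc3a1, rested on 1 library (900 and 2 counts, against 0 and 0), although DESeq2 called it. Slc36a4 (790 and 0 against 0 and 134 counts) and Slc15a3 (3 and 771 against 6 and 175) were high in 1 library of each tissue. Slc3a1, the second heavy chain, had 52 counts, Slc7a6 had 76 and Slc6a17 had 197, all in dura mater replicate 1 and with 0 elsewhere. Slc7a9, Slc15a3, Slc36a4, Slc38a1, Slc38a6, Slc38a7, Slc38a10 and the other genes counted in few libraries were named after their values were seen.

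**Figure D4:**
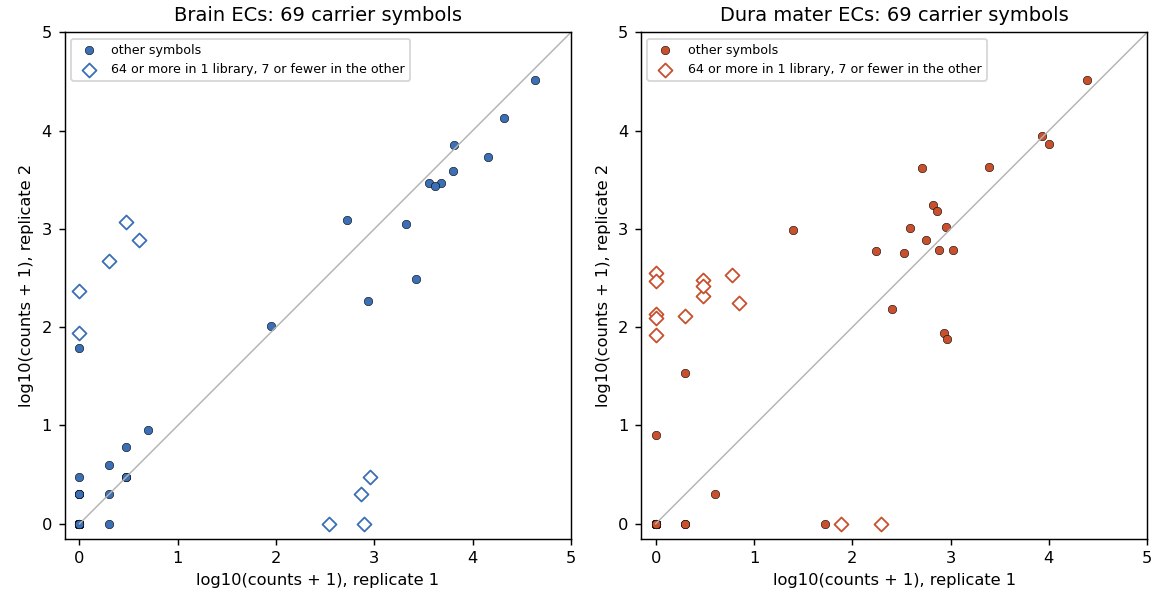
Counts of the 69 symbols in replicate 1 (x axis) and replicate 2 (y axis), each as log10(counts + 1), for brain ECs (left) and dura mater ECs (right); the line marks equal counts. Open diamonds, 9 on the left and 13 on the right, have at least 64 counts in 1 library and 7 or fewer in the other.

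Summed over the 66 carrier genes, the level was 7689 and 5696 CPM in brain ECs and 3939 and 4207 CPM in dura mater ECs, a ratio of 0.609 with no overlap. Without Slc3a2 the sums were 4756 and 3255 against 2130 and 2213 CPM. The SLC7 family summed to 1925 and 1569 against 192 and 481 CPM, most of it in brain ECs from Slc7a5 and Slc7a1. SLC6, SLC15, SLC36 and SLC38 sums overlapped between tissues. Of the opposite-strand genes, Slc7a6os alone was counted, with 2 and 1169 against 1048 and 612 counts. It is annotated as a protein-coding gene, and its exons overlap those of no other gene, Slc7a6 included. Its log2FC of 0.38 ± 2.21 (edgeR adjusted p = 1.00) turned to -0.64 without brain ECs replicate 1 and to -0.38 without dura mater ECs replicate 1.

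Genes that respond to or use the same substrates were looked at by 4 further lists, and edgeR called 0 genes in each. Over all genes tested, 50.2% had a log2FC below 0, 10.01% an unadjusted p under 0.05, and DESeq2 called 12.0%. Of the amino acid response genes, 21 of 34 were tested, 11 with a log2 fold change above 0 and 10 below, with a median of 0.05 and 3 at an unadjusted p under 0.05. DESeq2 called 3 of them, all higher in dura mater ECs, a share of the tested genes near that over all genes. Atf4 itself had 4389 and 3900 counts in brain ECs against 20703 and 18139 in dura mater ECs (log2FC 2.15 ± 0.35, edgeR adjusted p = 0.0739, DESeq2 8.23e-05). Of the genes of amino acid sensing by mTORC1, 21 were tested, 5 above and 16 below 0, with a median of -0.51, 2 at an unadjusted p under 0.05 and 1 called by DESeq2. Of the enzymes that make or use the carriers' substrates, 19 were tested, 8 above and 11 below 0, with a median of -0.06, 3 at an unadjusted p under 0.05 and 4 called by DESeq2. Glul, which makes glutamine from glutamate, had 74678 and 60062 counts in brain ECs against 28501 and 21886 in dura mater ECs (log2FC -1.48 ± 0.31, edgeR adjusted p = 0.168, DESeq2 0.0019). The libraries of the 2 tissues did not overlap for Atf4 and Glul, which were chosen after their values were seen. Of the amino acid carriers of other families, 9 of 23 were tested, 5 above and 4 below 0, with a median of 0.10 and 0 called by either tool.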

How the data were processed

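RNA was extracted from sorted ECs with Trizol and sequenced as Lexogen QuantSeq libraries on a NextSeq 500, per the labels. The deposited files hold raw counts per gene symbol, 1 table per library. The study's methods name TopHat and cufflinks, and the submitters' processing notes name Bowtie2, edgeR and the build mm10. The counting tool, the annotation, the use of strand and of molecular identifiers are not given in the sources used here. Counts were taken as the authors deposited them, and reads are therefore not known to be independent molecules.

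Counts were analysed in R 4.3.3 with edgeR 4.0.16 over the whole table: filterByExpr, TMM scaling, the older quasi-likelihood estimate, tissue as the only term, a prior count of 2 for log2 fold changes, and Benjamini-Hochberg adjustment over 9347 tested genes at 0.05. SE is the absolute log2 fold change over the square root of F. The common biological coefficient of variation was 1.39. The 79 lines whose symbol occurs more than once were each tested as a gene of their own. Cufflinks needs alignments, so edgeR took its place. CPM are counts scaled to a common library total after TMM adjustment. Totals of 13518973 to 16096203 counts make 3 counts, the level taken as the limit of a count of 0, equal to 0.184 to 0.227 CPM; intervals and this limit cover counting error only.

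Alternatives were RLE, upper-quartile and library-size scaling, no filter, at least 10 counts in every library, DESeq2 1.42.0 on the whole table, limma-voom (limma 3.58.1), edgeR's newer dispersion estimate, the replicate number as a block, a prior count of 0.5, and each library left out. Those for summed levels and for the lists of other genes were added after seeing the data. A prior count of 0.5 changes the log2 fold changes only. Its adjusted p-values repeat those of the reported fit in every count of fits and of alternative values. The steps were tested on simulated data in which every gene had the same spread between replicates. At a small spread nearly all changed genes were recovered. At a spread somewhat below the common value of these libraries, edgeR and limma-voom missed them and DESeq2 made more false calls than true ones. In these libraries the spread differed between genes, so the simulation does not describe carriers with close replicates, such as Slc7a1. A carrier that missed the threshold is not shown to be alike in both tissues, and calls by DESeq2 alone are uncertain.

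The members, gene lists and rules were chosen with earlier results of these data known. Named were 17 carriers listed by their roles at the barrier, any carrier passing the threshold, the 10 largest non-overlapping differences with a mean of at least 10 CPM, the carrier with the highest mean in each role, and up to 8 carriers with at least 64 counts in 1 replicate and 7 or fewer in the other; names outside this rule are said to be so. Gene coordinates are from GENCODE M21 (GRCm38), matched by symbol for 69 of 69, and promoters from RefSeq (GRCm38.p6). Single values of some genes are not reported here.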

Additional observations from a re-analysis of the deposited data

How the results depend on the processing

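The carriers that differed numbered 0 by edgeR in the reported fit and under RLE, upper-quartile and library-size scaling. They numbered 6 (1 higher, 5 lower in dura mater ECs) without a filter and 6 (1 and 5) with the newer dispersion estimate, 3 (all 3 lower) with at least 10 counts in every library, 9 (3 and 6) by DESeq2 and 1 (lower) by limma-voom. Leaving out a library gave 2 to 10 carriers, 0 to 3 higher and 2 to 7 lower, the most without brain ECs replicate 2. Over all genes, the calls were 57 in the reported fit, 326 without a filter, 305 with the newer estimate, 141 with at least 10 counts, 1257 by DESeq2 and 80 to 740 without a library. The carriers' median of -0.23 was -0.31 with RLE, -0.12 with upper-quartile (where the median of all genes moved from -0.01 to 0.13) and -0.20 with library-size scaling. It was 0.38 without a filter, -0.44 with at least 10 counts, 0.59 by DESeq2, -0.14 by limma-voom, and 0.21 to 3.14 without a library, where more carriers were tested (30 to 35 in place of 25). The median of all genes was 0.27 without a filter and -0.19 to 1.03 without a library. A prior count of 0.5 left the carriers' median at -0.23. Genes called in the 4 lists of other genes went from 0 to 4 without a filter, 2 with at least 10 counts, 8 by DESeq2, 2 by limma-voom, 3 with the newer estimate, and 0 to 10 without a library. The ratio of summed carrier levels, 0.609, lay between 0.530 and 0.715. Of 281 alternative values of 21 named carriers, 230 kept their direction and side of the threshold, 48 kept direction and passed it, and 3 turned: Slc6a6 without brain ECs replicate 1 (0.49, within a range of -0.79 to 0.49 over the libraries left out), and Slc7a6os without brain ECs replicate 1 (-0.64) and without dura mater ECs replicate 1 (-0.38, within a range of -0.64 to 7.70). The cause of these changes was not tested beyond the number of genes or libraries that each alternative removes.

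The titles share replicate numbers, but same-numbered libraries did not deviate together (r = -0.0208 across 9347 genes, which are not independent). A block for the replicate number gave 4 carriers called by edgeR (0 higher; Slc1a1, Slc38a3, Slc7a1 and Slc7a5 lower) and 224 of all genes; the carriers' median was -0.10 and 2 genes of the other lists were called.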
